A study of Homo sapiens with 24 samples.

Results

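CD14, TLR4 and the proteins that stand directly behind them carry the first steps of the response to bacterial lipopolysaccharide (LPS). The genes described here are the 9 that encode this machinery: CD14, TLR4, LY96 and CD180 at the cell surface, the adaptors MYD88, TIRAP, TICAM1 and TICAM2, and the kinase IRAK4. They were listed by name, with earlier results of these data known, out of 38735 named genes. All 9 were found and all 9 entered the test, which covered 13900 genes. Transcripts were measured in 24 poly-A RNA-seq libraries of THP-1, a human monocytic leukaemia line, made macrophage-like with 100 nM phorbol ester (PMA) for 24 h. DCVC, S-(1,2-dichlorovinyl)-l-cysteine, is a cysteine conjugate formed in the body from the solvent trichloroethylene. In the DCVC_LPS group, 6 libraries came from cells kept in 5 µM DCVC for 24 h and then, in fresh medium, in 100 ng/mL LPS for 4 h. The LPS group (6 libraries) had the same LPS without DCVC, the DCVC group (6) had the same DCVC without LPS, and the Control group (6) had medium only. All 4 groups received PMA and come from 1 cell line. The libraries carry the letters A to F, and the labels do not say whether these mark separate cultures, so the p-values measure the spread between these libraries, which may be technical.

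As background, CD14 binds LPS and hands it to TLR4 with MD-2, the product of LY96, which holds the lipid part of LPS. At the plasma membrane, TIRAP (also called Mal) bridges the receptor to MyD88, and MyD88 recruits the kinase IRAK4 into the assembly that leads to NF-kB. After endocytosis, which CD14 promotes, TICAM2 (TRAM) bridges the receptor to TICAM1 (TRIF), the adaptor that leads to type I interferon. CD180 (RP105) is a TLR4 relative that lacks a signalling domain and pairs with LY86 (MD-1).

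Each library held between 18478618 and 30107819 reads in named genes. Values are normalized counts: reads divided by the library's size factor. Their totals over named genes averaged 21831254 in DCVC_LPS, 29427331 in LPS, 17774466 in DCVC and 21135356 in Control libraries. All 12 macrophage markers examined averaged 10 or more across all libraries together, with summed levels of 48060 to 52754 in DCVC_LPS, 50112 to 52898 in LPS, 60245 to 69152 in DCVC and 84087 to 99790 in Control libraries. The marker CD68 averaged 25.5 normalized counts in DCVC_LPS, 11.1 in LPS, 15.6 in DCVC and 5.28 in Control libraries, and 81.7% of its exon bases are shared with an overlapping gene on the same strand. MARCO, another of them, averaged 4.88 in DCVC_LPS, 32.2 in LPS, 5.58 in DCVC and 4.56 in Control libraries. Of the 3 markers each for T, B, epithelial and erythroid cells and the 2 for NK cells, none had a mean of at least 10, while 1 of 3 fibroblast genes did (COL1A1, at 20.9 to 47.9 over the groups). Of 3 endothelial genes, 2 did: PECAM1, which monocytes are also known to express, and VWF, while CDH5 averaged 1.00 in DCVC_LPS, 0.728 in LPS, 1.47 in DCVC and 7.52 in Control libraries. The 3 summed to 1020 to 1504 in DCVC_LPS, 1430 to 2150 in LPS, 2096 to 2931 in DCVC and 4552 to 7440 in Control libraries, and VWF averaged 397 in DCVC_LPS against 116 in LPS, and 531 in DCVC against 196 in Control libraries. A list of 4 neutrophil and promyelocyte genes was also summed. The sums were 9084 to 13692 in DCVC_LPS, 5979 to 7333 in LPS, 8033 to 12831 in DCVC and 3887 to 6719 in Control libraries. Of these genes, AZU1 averaged 9682 in DCVC_LPS, 5552 in LPS, 8673 in DCVC and 4510 in Control libraries. ELANE averaged 2040, 869, 1878 and 770 in the same order. CSF3R and MPO, the rest of the list, averaged 146 to 155 and 0.579 to 2.29 over the groups. The part of these lists in the results was not tested. These are bulk libraries, so fewer cells expressing a gene and less RNA per cell cannot be told apart.

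Changes are differences of log2(value + 1) with their standard error (SE), and a gene is called raised or lowered at an adjusted p under 0.05 (limma, Benjamini-Hochberg over 13900 genes). With the pseudocount of 1, log2 changes of genes with few reads are understated. The 9 genes did not move as a block under either agent. In LPS minus Control, 4 of the 9 were raised and 5 lowered, where 78.4% of all tested genes were called (37.8% higher and 40.6% lower). In DCVC minus Control, 1 was raised and 6 were lowered, where 59.7% of all genes were called (27.5% higher and 32.2% lower). In DCVC_LPS minus LPS, 4 were raised and 5 lowered, where 72.7% were called (33.3% higher and 39.4% lower). In DCVC_LPS minus DCVC, 1 was raised and 5 were lowered, where 62.1% were called (29.9% higher and 32.2% lower). With so many genes called, these counts do not set the 9 genes apart. Libraries of the compared groups did not overlap for 8 of the 9 genes in LPS minus Control (56.8% of all tested genes), 7 in DCVC minus Control (36.5%), 6 in DCVC_LPS minus LPS (51.7%) and 4 in DCVC_LPS minus DCVC (45.1%). The median size of change among the 9 was 1.11, against 0.71 over all tested genes, in LPS minus Control, 0.62, against 0.37, in DCVC minus Control, 1.17, against 0.55, in DCVC_LPS minus LPS and 0.37, against 0.41, in DCVC_LPS minus DCVC.

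**Figure D1:**
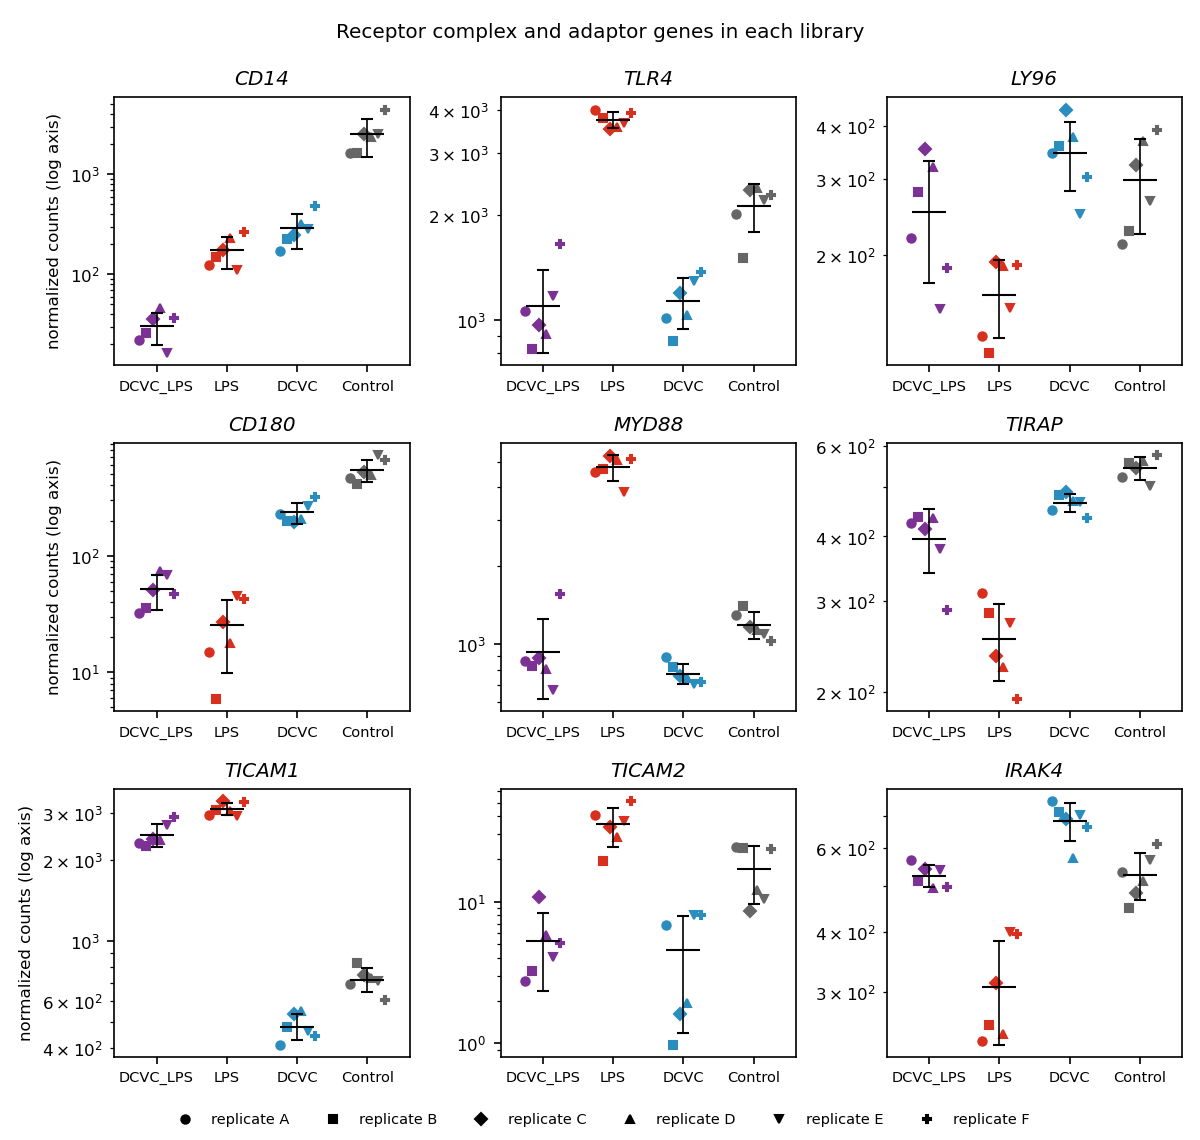
Normalized counts of the 9 genes in each of 24 libraries (log axes, 1 panel per gene); symbols are the replicate letters, horizontal lines the group means and bars the SD of 6 libraries. CD14 is lowest in DCVC_LPS libraries (16.3 to 45.9) and highest in Control libraries (1639 to 4443), while TLR4 and MYD88 are high in LPS libraries and not in DCVC_LPS libraries.

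CD14, the co-receptor that hands LPS to TLR4, was lowered by each agent and was lowest where both were given. It had 16.3 (lowest), 30.9 (median) and 45.9 (highest) normalized counts in DCVC_LPS, 109, 162 and 268 in LPS, 171, 267 and 487 in DCVC, and 1639, 2426 and 4443 in Control libraries. DCVC_LPS libraries did not overlap those of either single agent, nor did LPS or DCVC libraries overlap Control libraries. It follows that 6 of 6 letters went the same way in each comparison, which adds no further evidence. Libraries of neighbouring letters deviated together, so the letters may not be separate evidence. The change was -3.82 ± 0.28 in LPS minus Control (adjusted p = 3.6e-12) and -3.11 ± 0.28 in DCVC minus Control (adjusted p = 1.08e-09). Among LPS-treated cells, CD14 was lower by a further -2.50 with DCVC (adjusted p = 1.6e-08), and among DCVC-treated cells it was lower by -3.21 with LPS (adjusted p = 3.03e-10). A stretch of 30 bases in the RefSeq promoter window of CD14 (GRCh38.p14, chr5:140633380-140633409, minus strand) is shown with its AP-1 letters in capitals, since CD14 had the largest change of the 9 genes in DCVC minus Control. All 7 of these letters lie in annotated CD14 exons (GENCODE 29), upstream of the RefSeq start.
CD14: cctggggcgccTGAGTCAtcaggacactgc

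TLR4, the signalling receptor, was higher in LPS cells, lower in DCVC cells, and was not called raised by LPS where DCVC was given first. It had 826, 1010 and 1645 (lowest, median, highest) normalized counts in DCVC_LPS, 3516, 3727 and 4006 in LPS, 869, 1110 and 1374 in DCVC, and 1503, 2245 and 2382 in Control libraries. LPS libraries lay above all others, and the DCVC_LPS and DCVC libraries overlapped. TLR4 rose by 0.83 ± 0.14 in LPS minus Control (adjusted p = 4.86e-06) and fell by 0.91 ± 0.14 in DCVC minus Control (adjusted p = 3.58e-06). With every library scaled to the same total (equal totals), these changes were 0.36 (adjusted p = 0.0205) and -0.66 (adjusted p = 0.000188). DCVC_LPS minus LPS was -1.81 ± 0.14 (adjusted p = 1.88e-11), while DCVC_LPS minus DCVC was -0.06 ± 0.14 (adjusted p = 0.708). With equal totals that last difference was -0.36 (adjusted p = 0.0243, over a range of 0.00158 to 0.994 across all alternatives). The gene lies at chr9:117704175-117724730 on the plus strand (GENCODE 29), and 4.20% of its exon bases are shared with another gene on that strand.

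LY96, which encodes the MD-2 subunit that binds the lipid of LPS, followed neither CD14 nor TLR4. It had 150.1, 249.9 and 353 (lowest, median, highest) normalized counts in DCVC_LPS, 118, 169.7 and 193 in LPS, 249.8, 353 and 436 in DCVC, and 212, 296 and 391 in Control libraries. LPS libraries lay below all Control libraries, and in the other 3 comparisons the values overlapped. LY96 fell by 0.87 ± 0.20 in LPS minus Control (adjusted p = 0.000306) and was 0.60 ± 0.20 higher in DCVC_LPS than in LPS cells (adjusted p = 0.00859). That difference was -0.013 within letters E and F alone, and lost its call without letter B in all groups (0.47, adjusted p = 0.057). DCVC_LPS minus DCVC was -0.50 ± 0.20 (adjusted p = 0.0319), a call lost in 9 of 30 fits that left out a library or a letter, with a highest adjusted p of 0.104. DCVC minus Control was 0.23 ± 0.20 (adjusted p = 0.331), and 0.47 with equal totals (adjusted p = 0.0359), over a range of 0.000623 to 0.634 across all alternatives.

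CD180, the receptor relative without a signalling domain, had the largest change of the 9 genes in LPS minus Control. It had 32.0, 49.0 and 74.2 (lowest, median, highest) normalized counts in DCVC_LPS, 5.91, 22.5 and 45.4 in LPS, 195, 216 and 321 in DCVC, and 411, 509 and 724 in Control libraries. Both LPS-treated groups lay far below both groups without LPS. The LPS libraries held 4 to 34 CD180 reads each, so counting error is a large part of their values. The change was -4.60 ± 0.32 in LPS minus Control (adjusted p = 2.34e-12), -1.21 ± 0.32 in DCVC minus Control (adjusted p = 0.00256) and -2.22 ± 0.32 in DCVC_LPS minus DCVC (adjusted p = 2.07e-06). DCVC_LPS libraries were 1.17 ± 0.32 above LPS libraries (adjusted p = 0.00233), with overlapping values, and this difference was 0.36 within letters E and F (adjusted p = 0.164). LY86, which encodes the MD-1 partner of CD180, had an LPS minus Control change of -0.31 (adjusted p = 0.311), while DCVC minus Control was -1.47 (adjusted p = 7.21e-05).

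MYD88, the adaptor that nearly all TLRs use, was the gene of this set whose LPS rise differed most in the presence of DCVC. It had 669.9, 845 and 1564 (lowest, median, highest) normalized counts in DCVC_LPS, 3832, 4904 and 5247 in LPS, 708, 749 and 893 in DCVC, and 1031, 1155 and 1405 in Control libraries. LPS libraries stood above every other library, and DCVC_LPS libraries overlapped those of DCVC. MYD88 rose by 2.00 ± 0.13 in LPS minus Control (adjusted p = 7.71e-13) and fell by 0.62 ± 0.13 in DCVC minus Control (adjusted p = 0.000324). DCVC_LPS minus LPS was -2.40 ± 0.13 (adjusted p = 1e-13), and DCVC_LPS minus DCVC was 0.23 ± 0.13 (adjusted p = 0.147). Library F of DCVC_LPS held the highest value of its group, 1564, against 669.9 to 884 in the other 5. Without it DCVC_LPS minus DCVC was 0.05, and without library E it was 0.31 (adjusted p = 0.0437, over a range of 0.028 to 0.859 across all alternatives).

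TLR4 and MYD88 both had their highest median in LPS libraries and a lower median in DCVC_LPS than in Control libraries. TICAM2, described below, shared this order, with medians of 35.5 in LPS, 4.60 in DCVC_LPS and 17.9 in Control libraries. For TLR4 and MYD88, stretches of 30 bases around letters searched for in their RefSeq promoter windows are shown (GRCh38.p14, both on the plus strand). The TLR4 window holds the PU.1 letters GAGGAAGT or AGAGGAAG, read on either strand, in 3 separate stretches. They start at bases -225, -173 and -101 counted from the RefSeq start at 0. The MYD88 window holds PU.1 letters at base -19 and the letters GAAANNGAA, part of the interferon-stimulated response element, at base -61. Every one of these matches lies wholly in annotated exons of its gene (GENCODE 29). Sp1 letters also occur in both windows, and the TLR4 window holds the letters TGACNNNGC of the antioxidant response element at base -8, as do 13.3% of all windows. Capitals mark the match, and the 5 stretches lie at chr9:117704167-117704196, chr9:117704219-117704248, chr9:117704291-117704320, chr3:38138590-38138619 and chr3:38138631-38138660.
TLR4 from -225: aagccaactagCTTCCTCTtgctgtttctt
TLR4 from -173: ttcttcttctaACTTCCTCtcctgtgacaa
TLR4 from -101: ttgccgctttcACTTCCTCtcaccctttag
MYD88 from -61: gcgcttctcgGAAAGCGAAagccggcgggg
MYD88 from -19: ccgcaggagaaAGAGGAAGcgctggcagac
Of 35116 windows of 300 bases, 5.95% hold the PU.1 letters, 8.11% hold GAAANNGAA and 4.95% hold the AP-1 letters TGACTCA or TGAGTCA shown for CD14. A match is a description of letters and not a binding site.

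TIRAP, which bridges TLR4 to MyD88, moved opposite to MYD88 under LPS. It had 288, 419 and 435 (lowest, median, highest) normalized counts in DCVC_LPS, 194, 253 and 310.3 in LPS, 435, 467 and 488 in DCVC, and 501, 549 and 575 in Control libraries. TIRAP fell by 1.11 ± 0.10 in LPS minus Control (adjusted p = 3.03e-10) and was 0.65 ± 0.10 higher in DCVC_LPS than in LPS libraries (adjusted p = 3.73e-06). DCVC and Control libraries did not overlap, yet DCVC minus Control was -0.22 ± 0.10 with an adjusted p of 0.0623. With the replicate letter as a block this p was 0.0319, and it ranged from 0.00384 to 0.829 over all alternatives. DCVC_LPS minus DCVC was -0.24 ± 0.10 (adjusted p = 0.0394), and -0.16 without library F of DCVC_LPS (adjusted p = 0.138), with the call lost in 11 of 30 such fits. Of the TIRAP exon bases, 22.5% are shared with genes on the opposite strand, and whether counting used strand was not given in the sources used here.

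IRAK4, the kinase recruited by MyD88, was lower in LPS cells and higher in DCVC cells. It had 494, 526 and 567 (lowest, median, highest) normalized counts in DCVC_LPS, 237, 284 and 400.4 in LPS, 571, 698 and 752 in DCVC, and 449, 524 and 612 in Control libraries. DCVC_LPS libraries lay within the range of the Control libraries, above every LPS library and below every DCVC library. IRAK4 fell by 0.80 ± 0.11 in LPS minus Control (adjusted p = 7.76e-07), and rose by 0.38 ± 0.11 in DCVC minus Control (adjusted p = 0.00684). DCVC_LPS minus LPS was 0.80 ± 0.11 (adjusted p = 1e-06) and DCVC_LPS minus DCVC was -0.37 ± 0.11 (adjusted p = 0.0068). IRAK4 was the only one of the 9 genes called raised in DCVC minus Control.

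TICAM1, the TRIF adaptor, rose with LPS both with and without DCVC. It had 2266, 2386 and 2891 (lowest, median, highest) normalized counts in DCVC_LPS, 2927, 3068 and 3320 in LPS, 411, 471 and 550.1 in DCVC, and 602, 721 and 832 in Control libraries. Both LPS-treated groups lay above both groups without LPS, and no groups overlapped in any of these comparisons. The change was 2.11 ± 0.08 in LPS minus Control (adjusted p = 8.79e-18) and 2.37 ± 0.08 in DCVC_LPS minus DCVC (adjusted p = 3.67e-18). TICAM1 fell by 0.58 ± 0.08 in DCVC minus Control (adjusted p = 9.04e-07). DCVC_LPS minus LPS was -0.32 ± 0.08 (adjusted p = 0.000787) on the deposited scale, but 0.11 with equal totals and 0.031 with equal upper quartiles, so its direction depends on the scaling. The 250 bases before its RefSeq start (GRCh38.p14, chr19:4831713-4831962, minus strand) are shown because of all 9 genes TICAM1 alone was raised by LPS in the presence of DCVC. They hold 1 match to the NF-kB motif, in capitals, as do 11.3% of all windows.
TICAM1: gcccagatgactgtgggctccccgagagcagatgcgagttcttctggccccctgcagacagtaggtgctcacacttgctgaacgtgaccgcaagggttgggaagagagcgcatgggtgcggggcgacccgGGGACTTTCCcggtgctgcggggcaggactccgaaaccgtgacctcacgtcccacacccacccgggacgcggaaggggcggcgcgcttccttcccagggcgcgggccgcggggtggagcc

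Per kilobase of all its exons, TICAM2, the TRAM adaptor that bridges TLR4 to TRIF, was the lowest of the 9 genes in DCVC_LPS, DCVC and Control cells. That rank may depend on how reads in exon bases shared with another gene were counted, which was not given. TICAM2 fell with DCVC both with and without LPS. It had 2.74, 4.60 and 10.9 (lowest, median, highest) normalized counts in DCVC_LPS, 19.2, 35.5 and 51.3 in LPS, 0.977, 4.37 and 8.03 in DCVC, and 8.52, 17.9 and 24.2 in Control libraries. The lowest DCVC library held 1 read and the highest LPS library 41 reads, so counting error is a large part of these values. DCVC and Control libraries did not overlap, nor did those of DCVC_LPS and LPS. TICAM2 fell by 1.86 ± 0.39 in DCVC minus Control (adjusted p = 0.000267), and DCVC_LPS minus LPS was -2.57 ± 0.39 (adjusted p = 2.72e-06). LPS minus Control was 1.05 ± 0.39 (adjusted p = 0.0182), with overlapping values, and 0.59 with equal totals (adjusted p = 0.185, over a range of 0.00104 to 0.76 across all alternatives). That call was also lost without Control library C (0.89) and without letter C or E in all groups (0.89 and 0.91).

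The readthrough gene TMED7-TICAM2 starts at TMED7, encoding a transport protein of the p24 family, and runs through TICAM2 on the same strand. It moved opposite to TICAM2 under DCVC. It had 20.5, 23.8 and 36.6 (lowest, median, highest) normalized counts in DCVC_LPS, 2.59, 5.56 and 8.92 in LPS, 21.3, 26.7 and 40.0 in DCVC, and 2.08, 4.15 and 9.05 in Control libraries. The readthrough rose by 2.43 ± 0.29 in DCVC minus Control (adjusted p = 1.22e-07) and was 2.16 ± 0.29 higher in DCVC_LPS than in LPS libraries (adjusted p = 3.33e-07). Within a library, the readthrough stood at a median of 4.95 times TICAM2 in DCVC_LPS, 0.132 in LPS, 8.64 in DCVC and 0.25 in Control cells, and groups with and without DCVC did not overlap. TMED7 itself averaged 1414 ± 211 normalized counts in DCVC_LPS, 1689 ± 80.7 in LPS, 1311 ± 248 in DCVC and 1738 ± 109.6 in Control cells (SD, n = 6 each). It fell by 0.43 ± 0.10 in DCVC minus Control (adjusted p = 0.000912), opposite in direction to the readthrough. The TMED7 call was lost with equal totals (-0.18, adjusted p = 0.111) and within letters A and B (-0.15, adjusted p = 0.0937).

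TICAM2 and the readthrough share 2666 exon bases, which is 82.2% of TICAM2. Only 578 of 3244 TICAM2 bases and 127 of 3728 readthrough bases lie in neither of the other 2 genes of the locus, and how reads in shared bases were counted was not given in the sources used here. Each of the 2 values is therefore uncertain. With both summed, in an alternative chosen after seeing the data, DCVC minus Control was 0.66 (adjusted p = 0.0222) and DCVC_LPS minus LPS was -0.28 (adjusted p = 0.294). The DCVC minus Control direction given for TICAM2 thus holds only for reads assigned to TICAM2 alone, and so does the call in DCVC_LPS minus LPS. The 2 genes begin at different places, and bases before each RefSeq start are shown, both on the minus strand of GRCh38.p14. They are 250 for TICAM2 (chr5:115602480-115602729) and 113 for the readthrough (chr5:115626174-115626286). Those of the readthrough end before the first base of its window that lies in an annotated exon of TMED7. The TICAM2 window also holds AP-1 letters from base 11 after its start, in an exon, while Sp1 letters (GGGCGG, in 45.0% of all windows) were the only ones found in the readthrough window.
TICAM2: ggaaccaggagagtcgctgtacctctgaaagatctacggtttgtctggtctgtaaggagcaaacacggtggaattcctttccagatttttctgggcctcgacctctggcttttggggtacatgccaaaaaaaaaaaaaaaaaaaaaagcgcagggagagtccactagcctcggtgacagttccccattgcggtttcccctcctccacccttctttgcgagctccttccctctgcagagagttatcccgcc
TMED7-TICAM2: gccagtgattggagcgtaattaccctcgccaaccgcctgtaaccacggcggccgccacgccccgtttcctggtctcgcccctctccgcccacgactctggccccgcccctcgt

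**Figure D2:**
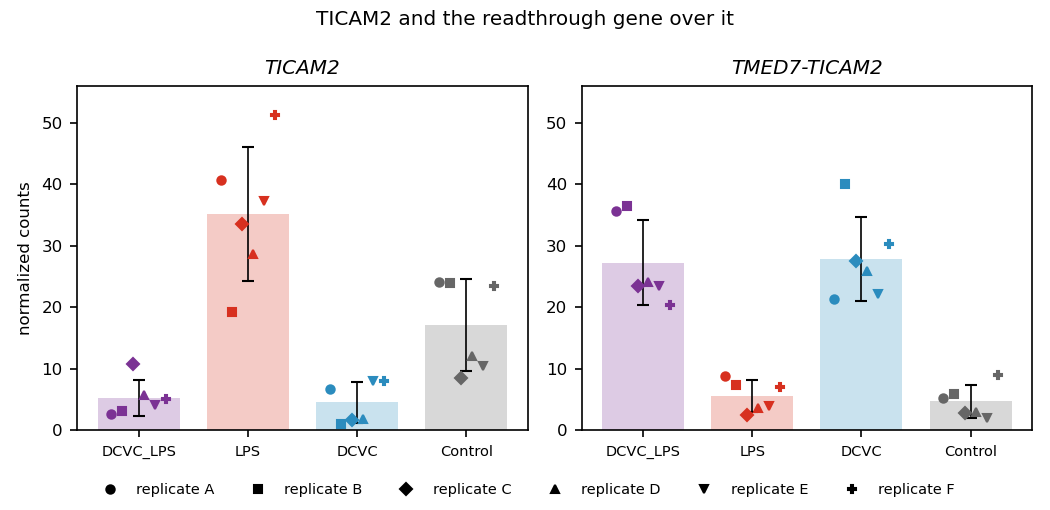
Normalized counts of TICAM2 (left) and the readthrough gene TMED7-TICAM2 (right) in each library; bars are group means from 0, lines the SD of 6 libraries. The readthrough averages 27.3 in DCVC_LPS and 27.9 in DCVC cells, against 5.60 in LPS and 4.71 in Control cells, while TICAM2 is high in LPS and Control libraries.

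Whether DCVC changed the response to LPS was tested as the LPS change with DCVC minus the LPS change without it, which used each of the 24 libraries once. Of the 9 genes, 3 were called positive and 2 negative, where 45.7% of all tested genes were called (22% positive and 23.7% negative). The difference was largest for CD180, at 2.38 ± 0.46 (adjusted p = 0.000165), whose LPS fall was smaller with DCVC. Across all alternatives the CD180 difference ranged from 1.59 to 2.78, with 4 to 34 CD180 reads per LPS library. For MYD88 the difference was -1.78 ± 0.19 (adjusted p = 6.28e-08) and for TLR4 -0.90 ± 0.19 (adjusted p = 0.000494). MYD88 and TLR4 were called raised by LPS without DCVC and not with it. TIRAP had a difference of 0.87 ± 0.14 (adjusted p = 2.69e-05), and IRAK4 one of 0.43 ± 0.16 (adjusted p = 0.0344). For these last 2 the LPS fall was smaller with DCVC.

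For the other 4 genes the difference missed the threshold, which does not show equal responses. It was 0.61 ± 0.39 for CD14 (adjusted p = 0.207) and 0.26 ± 0.11 for TICAM1 (adjusted p = 0.0574). With the replicate letter as a block these adjusted p were 0.0193 and 0.0436, over ranges of 0.0031 to 0.723 for CD14 and 0.00126 to 0.815 for TICAM1 across all alternatives. LY96 had 0.37 ± 0.28 (adjusted p = 0.288) and TICAM2 -0.71 ± 0.56 (adjusted p = 0.316). LY96 was called within letters C and D (0.59, adjusted p = 0.00472) and with the block and equal totals (0.55, adjusted p = 0.029), over a range of 0.00472 to 0.661. TICAM2 was called within letters E and F (-2.11, adjusted p = 0.0457) and when summed with its readthrough (-0.94, adjusted p = 0.0272), over a range of 0.0272 to 0.876. The IRAK4 call was lost in 12 of the 30 fits that left out a library or a letter, with a highest adjusted p of 0.133. It was also lost with edgeR on the recovered reads (adjusted p = 0.0778) and within letters E and F (0.16, adjusted p = 0.457). Within letters E and F the TIRAP difference was not called either (0.78, adjusted p = 0.075).

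**Figure D3:**
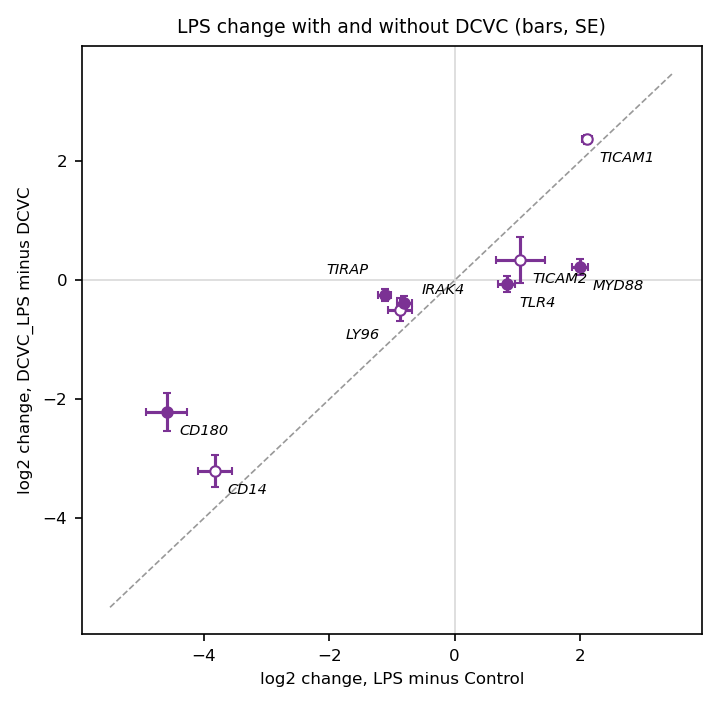
The log2 LPS change with DCVC (DCVC_LPS minus DCVC, vertical) against that without DCVC (LPS minus Control, horizontal) for the 9 genes; bars are SE, the dashed line marks equal changes and filled points have a called difference. MYD88 and TLR4 lie near 0 on the vertical axis at 0.23 and -0.06, and TICAM1 near the line at 2.11 and 2.37.

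**Figure D4:**
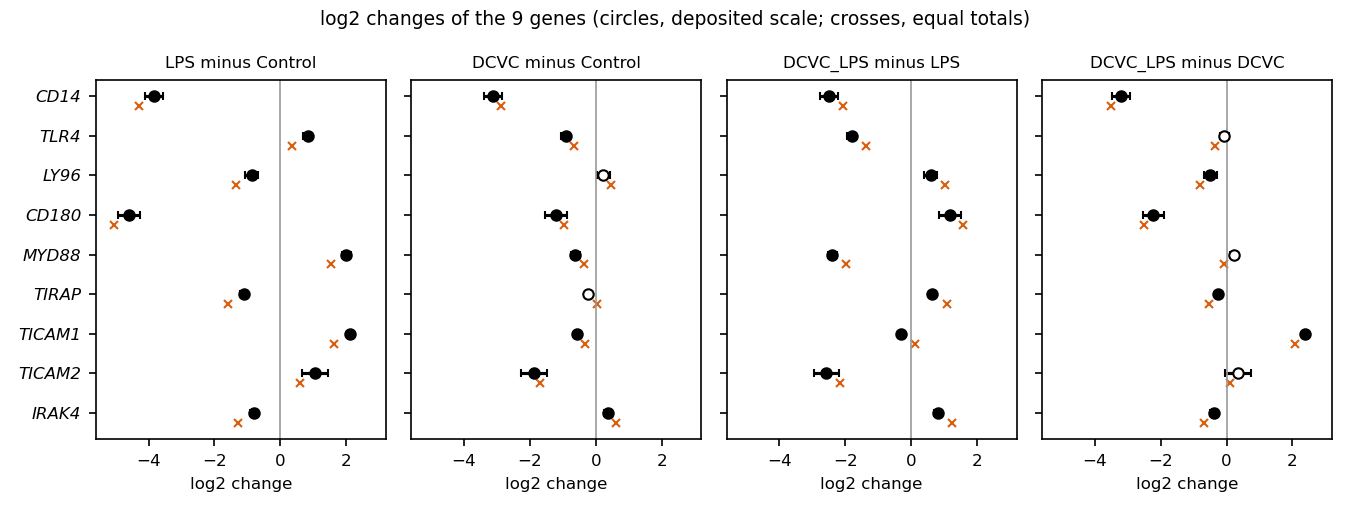
The log2 change of each gene in 4 comparisons; circles with SE bars use the deposited scale (filled where called) and crosses the scale with equal library totals. Crosses are shifted by about the same amount within a panel, which takes TICAM1 across 0 in DCVC_LPS minus LPS.

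Ratios of 2 genes inside a library do not depend on how libraries were scaled. CD14 stood at a median of 0.0268 times TLR4 in DCVC_LPS (range 0.0140 to 0.0503), 0.0446 in LPS (0.0298 to 0.0684), 0.240 in DCVC (0.169 to 0.355) and 1.09 in Control libraries (0.818 to 1.95). LY96 to TLR4 was 0.274, 0.0448, 0.353 and 0.145 in DCVC_LPS, LPS, DCVC and Control libraries, so each group with DCVC had more LY96 per TLR4 than the group without it. TICAM1 to MYD88 was 2.73 in DCVC_LPS (1.85 to 4.03), against 0.640 in LPS (0.599 to 0.764), 0.636 in DCVC and 0.615 in Control libraries. This ratio of the TRIF to the MyD88 adaptor was thus near the same level in 3 groups and apart in DCVC_LPS, where no library overlapped the others. TIRAP to MYD88 and IRAK4 to MYD88 were lowest in LPS libraries, at medians of 0.0524 and 0.0569, against 0.460 and 0.432 in Control libraries.

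**Figure D5:**
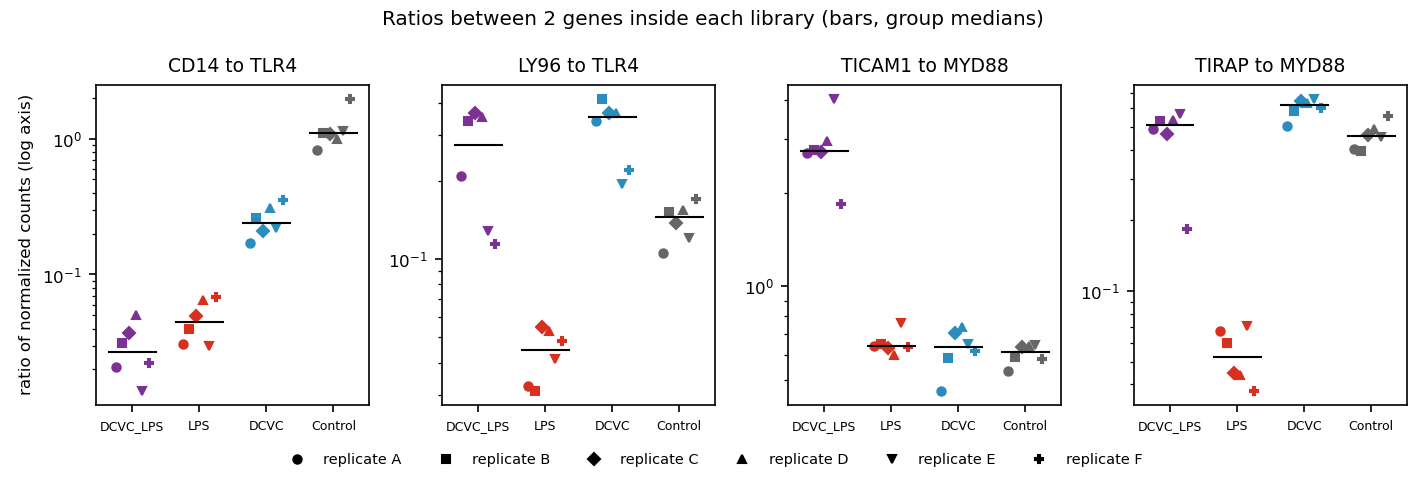
Ratios of normalized counts of 2 genes inside each library (log axes); bars are group medians and symbols the replicate letters. TICAM1 to MYD88 lies between 1.85 and 4.03 in DCVC_LPS and below 1 in the other groups, and TIRAP to MYD88 is lowest in LPS libraries.

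Levels of different genes were compared per kilobase of exon. In DCVC_LPS cells the order of means was TICAM1 (931 ± 92.2, SD, n = 6), LY96 (415 ± 131), MYD88 (235 ± 79.5), TIRAP (110.2), IRAK4 (93.4), TLR4 (82.5), CD14 (16.1), CD180 (9.06) and TICAM2 (1.64). Values overlapped there between LY96 and MYD88, among TIRAP, IRAK4 and TLR4, and between CD14 and CD180. In LPS cells MYD88 (1196 ± 132) and TICAM1 (1159 ± 61.9) came first with overlapping values, then TLR4 (282) and LY96 (266), also overlapping, and CD180 came last (4.53). In DCVC cells LY96 led (569 ± 105) and MYD88 (194) and TICAM1 (179.6) overlapped. In Control cells CD14 led (1336 ± 544), before LY96 (492), MYD88 (298) and TICAM1 (269). There MYD88 overlapped both LY96 and TICAM1, TLR4 (159.8) overlapped TIRAP (151), and CD180 (96.3) overlapped IRAK4 (93.6) and TLR4. CD14 ranked 7 of 9 in DCVC_LPS cells and 1 of 9 in Control cells. With the length of the longest transcript in place of all exons, 11 of the 36 values moved by more than their SD. TIRAP then came before TLR4, and IRAK4 before CD180, in Control cells. In DCVC cells CD14 went from rank 4 to 6 and TIRAP from 5 to 3, and in LPS cells TIRAP came before CD14. TICAM2 levels also depend on how reads in its shared exon bases were counted.

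The counts of the lists that follow stand beside the shares of all tested genes called: 37.8% higher and 40.6% lower in LPS minus Control, 27.5% and 32.2% in DCVC minus Control, and 33.3% and 39.4% in DCVC_LPS minus LPS. Genes that assist the receptor, a list of 12 of which 11 were tested, included 0 raised and 8 lowered in DCVC minus Control, and 2 raised and 7 lowered in DCVC_LPS minus LPS. With equal totals these counts were 1 and 5, and 4 and 2. ITGB2 and ITGAM, the chains of the integrin CR3, which also binds LPS, fell in DCVC minus Control by 0.56 (adjusted p = 1.48e-06) and 1.44 (adjusted p = 2.34e-05). CNPY4, a relative of the TLR chaperone CNPY3, fell by 2.19 in LPS minus Control (adjusted p = 6.03e-11), where 1 of the list was raised and 4 were lowered (1 and 9 with equal totals). ADAM17, a protease that sheds surface proteins, was the member raised, by 0.97 (adjusted p = 1.49e-06). In the endocytosis list, 2 of 13 were raised and 6 lowered in DCVC minus Control, and 5 and 5 with equal totals. SYK and PLCG2, known for CD14-dependent uptake of TLR4, fell there by 0.96 (adjusted p = 4.09e-11) and 0.51 (adjusted p = 9.41e-07). PIK3CD, a lipid kinase of TLR4 uptake, was lower in DCVC_LPS than in LPS cells by -1.89 (adjusted p = 7.17e-11), where 2 of the 13 were raised and 8 lowered (6 and 3 with equal totals).

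Among 12 kinases and ligases next to MyD88, 8 were raised and 1 was lowered in LPS minus Control (6 and 4 with equal totals). IRAK2, a kinase that joins the MyD88 assembly after IRAK4, rose by 5.50 (adjusted p = 7.28e-20) in LPS minus Control and by 5.21 (adjusted p = 6.96e-19) in DCVC_LPS minus DCVC. Its interaction was -0.29 (adjusted p = 0.304). The ubiquitin ligase PELI1 rose by 3.95 in LPS minus Control (adjusted p = 1.83e-18) and had an interaction of -0.97 (adjusted p = 0.000217). TAB1, a subunit of the TAK1 kinase complex, fell by 1.65 in LPS minus Control (adjusted p = 8.93e-17). Next to TRIF, 6 of 11 genes were raised and 5 lowered in LPS minus Control (5 and 5 with equal totals). TRAF3, which couples TRIF to the kinase TBK1, rose by 2.25 in LPS minus Control (adjusted p = 8.53e-15) and by 2.20 in DCVC_LPS minus DCVC (adjusted p = 4.86e-14), and its interaction was -0.05 (adjusted p = 0.855). RIPK1 and TRADD, relays of TRIF and of tumour necrosis factor receptors, were lower in DCVC_LPS than in LPS cells by -0.95 (adjusted p = 4.11e-10) and -1.36 (adjusted p = 1.29e-09).

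Of 12 inhibitors of the receptor and adaptors, 11 were tested, with 2 raised and 7 lowered in LPS minus Control (2 and 9 with equal totals). SOCS1, an inhibitor of cytokine and TLR signalling, rose by 4.06 (adjusted p = 3.32e-15) and SIGIRR, a decoy-like receptor of the family, fell by 1.70 (adjusted p = 6.04e-08). SOCS1 had a negative interaction of -2.01 (adjusted p = 4.96e-06). Of 12 other receptors that use MyD88, 10 were tested, with 7 raised and 2 lowered in LPS minus Control, and 2 raised and 7 lowered in DCVC minus Control. With equal totals these counts were 5 and 2, and 2 and 5. TLR7 and TLR8, endosomal receptors for RNA, fell by 3.76 (adjusted p = 1.1e-10) and 5.38 (adjusted p = 1e-13) in DCVC minus Control. TLR2, the receptor for bacterial lipoproteins, was 0.60 higher in DCVC_LPS than in LPS cells (adjusted p = 0.000152), opposite in direction to TLR4. In the 8 genes of cytosolic LPS sensing, which act without TLR4, 7 were raised and 0 lowered in LPS minus Control, and 0 raised and 7 lowered in DCVC_LPS minus LPS. With equal totals these counts were 7 and 1, and 0 and 7. CASP5, a caspase that binds LPS, rose by 5.43 in LPS minus Control (adjusted p = 6.24e-15) and had an interaction of -1.34 (adjusted p = 0.008). GBP4, a guanylate-binding protein, rose by 4.78 (adjusted p = 4.97e-16) and had an interaction of -3.71 (adjusted p = 1.69e-09).

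For each of the 9 genes, the genes with the most alike pattern were sought among 11410 genes with a mean of at least 50, by the root mean square difference of centred log2 values over the 24 libraries. The distance is a description, since all values share the same libraries. It is not scaled to the size of a gene's changes or to its noise. It therefore does not compare between the 9 genes how unusual a pattern is. IRAK4 had the closest match, MR1, an antigen-presenting molecule, at 0.10. TICAM1 was closest to TRAF3 and the transcription factor MAFF at 0.20 each. MYD88 was closest to PARP12 (0.20), IFI35 (0.20) and IFITM3 (0.23), all of which are known as interferon-induced. TLR4 was closest to MYCBP2 (0.21), PRR5 (0.23) and FBXO6 (0.23), and LY96 to TMEM251 (0.24) and the lysosomal ceramidase ASAH1 (0.25). TIRAP was closest to the splicing factor CDC40 at 0.15. For CD14 and CD180, which changed most in LPS minus Control, the nearest were SPRED1 at 0.54 and the homeobox gene HHEX at 0.38. For TICAM2 the nearest was TCF4 at 0.67.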

How the data were processed

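THP-1 poly-A RNA-seq libraries (24 in all, 6 in each of 4 groups) were grouped by their titles. The values deposited by the authors are a signal, counts divided by a size factor, as their steps show: in each library 100% of them fell on whole reads, to within 0.1 read. Per the submitters' processing notes, which give no roles, the build was hg38 and the tools were DESeq2 1.24.0, R 3.6.0, featureCounts 1.6.1, STAR, MultiQC 0.9 and FastQC 0.11.5. Annotation, strandedness and the treatment of reads shared by genes were not given in the sources used here. Of 58381 entries, 19595 (33.6%, holding 0.986% of the values) carry no gene name and were left out, and 51 symbols on 2 entries were summed.

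Values were tested as log2(value + 1) with limma 3.58.1 in R 4.3.3 (trend), over 13900 genes with a mean of at least 10. The 4 groups were fitted together, which left 20 residual degrees of freedom, with Benjamini-Hochberg adjustment and a threshold of 0.05. The limma and edgeR fits were also run on simulated independent counts with few changed genes and no correlation between letters. That run cannot test the fits under the many changes and correlated letters of these data. Alternatives were pseudocounts of 0.5 and 8, no filter and a mean of at least 50, equal totals, upper quartiles, edgeR 4.0.16 and DESeq2 1.42.0 on the recovered reads, the compared groups alone, the letter as a replicate block, letter pairs, and each library or letter left out. The count test with edgeR called 10844 genes in LPS minus Control, against 10892 with limma. Libraries with the same letter deviated together from their group means (36 of 36 correlations over 0.1, from 0.134 to 0.539, median 0.33). The letters were therefore taken to pair the samples, which rests on the data and not on the labels. Libraries of neighbouring letters (A and B, C and D, E and F) also deviated together, with a median correlation of 0.286 (35 of 36 over 0.1). For other letters the median was -0.114. The letters may therefore not be independent replicates, whereas the main fit takes each library as independent. Its SE and p-values do not allow for this. Whether the letter block removes this dependence was not tested.

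The 9 genes and all lists were chosen with earlier results of these data known. The text names the 9 genes, up to 3 raised and 3 lowered genes with the smallest adjusted p per list and comparison, up to 5 genes of most alike pattern per gene, and overlapping genes. LY86, the partner of CD180, was chosen outside this rule after its values were seen. So were the markers CD68, MARCO, COL1A1, PECAM1, VWF, CDH5, AZU1, ELANE, CSF3R and MPO. Positions and exon lengths come from GENCODE 29, and promoter windows, 250 bases before to 50 after a start, from RefSeq (GRCh38.p14), with TIRAP not matched and no sequence of LY96 shown.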

Additional observations from a re-analysis of the deposited data

Results flagged for a closer look

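Library F of DCVC_LPS stood apart for 2 of the 9 genes on the log2(value + 1) scale. For MYD88 it was the highest of its group, at 1564 normalized counts against 669.9 to 884 in the other 5, and on the log2 scale the gap was 0.673 of the whole range. For TIRAP it was the lowest, at 288 against 379 to 435 in the other 5, with a gap of 0.663 of the range in log2. On normalized counts the gaps were 0.761 for MYD88, past the critical value, and 0.616 for TIRAP, short of it, while the highest CD14 value of the Control libraries (4443) passed with 0.679. Of 36 gene and group combinations examined, these 2 passed Dixon's critical value on the log2 scale, and chance passes about 1 in 20. The same library also held the highest TLR4 value of its group, 1645. The cause was not tested.

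For 5 of the 9 genes the LPS change with DCVC differed from that without DCVC in the test of the difference itself (limma, adjusted p under 0.05). Of all 13900 tested genes, 45.7% were called in this test, so the count does not set the 9 genes apart. The difference was -0.90 for TLR4, 2.38 for CD180, -1.78 for MYD88, 0.87 for TIRAP and 0.43 for IRAK4 on the log2 scale.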

How the results depend on the processing

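Equal totals shifted the median change of all genes by -0.48 in LPS minus Control, 0.25 in DCVC minus Control, 0.43 in DCVC_LPS minus LPS, -0.30 in DCVC_LPS minus DCVC and 0.18 in the interaction, and the share of raised genes among the calls from 48.2%, 46.0%, 45.8%, 48.2% and 48.1% to 27.4%, 69.7%, 71.3%, 23.6% and 67.3%. Members called ran from 8 to 9 in LPS minus Control, 7 to 8 in DCVC minus Control, 8 to 9 in DCVC_LPS minus LPS, 4 to 6 in DCVC_LPS minus DCVC and 4 to 6 in the interaction when 1 library or letter was left out. Within letters E and F, 4 members (against 7) were called in DCVC minus Control, and 2859 genes (against 6350) had an interaction; the DCVC minus Control calls lost there were MYD88 (-0.58), TICAM2 (-0.89) and IRAK4 (0.22). With the replicate block and equal totals, 8 members had a called interaction, against 5. The block alone called 7, adding CD14 and TICAM1, and in DCVC minus Control it called 8, adding TIRAP; it changed no other call of the 9 genes. Directions turned as follows, and the cause was not tested. With equal totals, with or without the block, TMED7-TICAM2 was -0.15 in LPS minus Control, TIRAP 0.027 in DCVC minus Control, TICAM1 0.11 and TMED7 0.16 in DCVC_LPS minus LPS, and MYD88 -0.0713 and TMED7 -0.18 in DCVC_LPS minus DCVC. With upper quartiles, TICAM1 was 0.0309 and TMED7 0.083 in DCVC_LPS minus LPS. Within letters E and F, LY96 was -0.23 in DCVC minus Control and TMED7 0.0326 in LPS minus Control, LY96 -0.0132 in DCVC_LPS minus LPS, and TLR4 0.0601 and TICAM2 -0.69 in DCVC_LPS minus DCVC. Within A and B, MYD88 was -0.0176 and TMED7-TICAM2 0.29 in DCVC_LPS minus DCVC, and within C and D the TICAM2 interaction was 0.19. TICAM2 summed with its readthrough gave 0.66 in DCVC minus Control. Leaving out 1 library or letter, DCVC_LPS minus DCVC ran from -0.19 to 0.0121 for TLR4, -0.025 to 0.62 for TICAM2 and -0.18 to 0.0736 for TMED7-TICAM2. In that comparison the call of LY96 was lost in 9 and that of TIRAP in 11 of 30 such fits, and the LPS minus Control call of TICAM2 in 3. Low reads limit TICAM2, its readthrough and, in LPS cells, CD180.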
